A study of Mus musculus with 6 samples.

Results

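Accessible chromatin at the ends of non-coding RNA genes was described in mouse embryonic fibroblasts that lack Ezh2, the catalytic subunit of Polycomb repressive complex 2. Of 21835 intervals in the deposited list, 21624 lay on chromosomes 1 to 19. Of these, 1416 (6.55%) lay within 1000 bp of an end of a long non-coding RNA or microRNA gene and more than 1000 bp from every end of a protein-coding gene. The rule used positions and no measured value, though it was chosen with earlier results of these data known. Gene ends came from the RefSeq table of GRCm38, the assembly behind mm10, which held 0 genes of a plain ncRNA class on these chromosomes, so the members fell to 2 classes of RNA gene. The intervals touched 1331 of 12408 long non-coding RNA genes and 82 of 1136 microRNA genes.

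The measurement was ATAC-seq, which reads open chromatin from the places where a transposase could cut and tag the DNA, on 50000 whole cells. The series has 3 groups of 2 samples from 1 line, line A (also named C2), which was immortalised with c-myc. They are Ezh2 -/- cells, Ezh2 -/- cells given Ezh2 back from the retrovirus pMSCV-Ezh2, and wild-type cells. All values here come from the list of the Ezh2 -/- cells, which gives no value per replicate. The other groups were not analysed here, so nothing below compares genotypes, and no test over samples was possible. The sources used here do not say how Ezh2 was removed. The read depth behind the list is unknown. Gene-end intervals were present at 12 of 14 fibroblast marker genes, among them Col1a1, Fn1 and Prrx1, with Thy1 and Pdgfra lacking one. They were present at 1 of 16 marker genes of other cell types, Gfap, and at 49.7% of all protein-coding genes.

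Long non-coding RNAs are transcripts without a long reading frame. Some shape nuclear bodies or silence neighbouring genes, while others serve mainly as carriers for small nucleolar RNAs or microRNAs that are cut from their introns or exons. MicroRNAs are short RNAs that bind target messenger RNAs through their seed, bases 2 to 8. Their hairpins often lie far from the promoter of the host transcript, so an interval at a hairpin need not be its promoter. Polycomb repressive complex 2 is known to mark the promoters of developmental genes, including non-coding ones, with methylated histone H3.

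MicroRNAs with known roles in mesenchymal and growing cells are shown first, since 4 groups of them lay under or beside an interval. Mature sequences are RefSeq entries on GRCm38.p6, 5′ to 3′, with the seed in capitals. Of the 82 microRNA genes with an interval, 74 were in the RefSeq sequence table. The let-7 entries were chosen after their values were seen, and the other entries belong to the listed microRNAs.
miR-22-3p: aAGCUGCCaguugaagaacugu
miR-23a-3p: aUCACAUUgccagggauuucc
miR-27a-3p: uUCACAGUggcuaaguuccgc
miR-24-3p: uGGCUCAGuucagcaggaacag
miR-199a-5p: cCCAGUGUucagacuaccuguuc
miR-199a-3p: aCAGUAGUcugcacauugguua
miR-199b-3p: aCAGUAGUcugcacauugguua
let-7b-5p: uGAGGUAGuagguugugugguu
let-7c-5p: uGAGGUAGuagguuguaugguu
let-7i-5p: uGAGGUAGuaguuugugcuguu
The genes Mir199a-1, Mir199a-2 and Mir199b share the seed CAGUAGU. They lie on chromosomes 9, 1 and 2 and each had its own interval. The genes Mirlet7b, Mirlet7c-2 and Mirlet7i share the seed GAGGUAG, the first 2 under a single interval on chromosome 15. The seeds of miR-23a-3p (UCACAUU) and miR-27a-3p (UCACAGU) differ although their genes stand side by side.

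Intervals at non-coding RNA ends had a median width and height between those at coding-gene ends and those at neither kind of end. Their median width was 2566 bp (quartiles 1962 and 3529 bp), against 2674 bp (2007 and 3750 bp) for 9572 intervals at coding-gene ends and 2280 bp (1734 and 2947 bp) for 10636 intervals at neither kind of end. Signal is given per called region, since a region can appear in the list as several intervals that repeat its values. Over the 1368 regions of the members the median maximum signal, the height of the coverage in the authors' units, was 24 (quartiles 18 and 34). It was 36 (26 and 47) at coding-gene ends and 21 (16 and 29) at neither. The median total signal, the area under the coverage, was 30743 at non-coding RNA ends, 36359.5 at coding-gene ends and 25085 at neither. A maximum of 60 or more was found in 4.09% of the member regions, in 9.56% at coding-gene ends and in 1.98% at neither. These differences are descriptions within 1 list, and the quartile ranges of the 3 classes overlap.

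**Figure D1:**
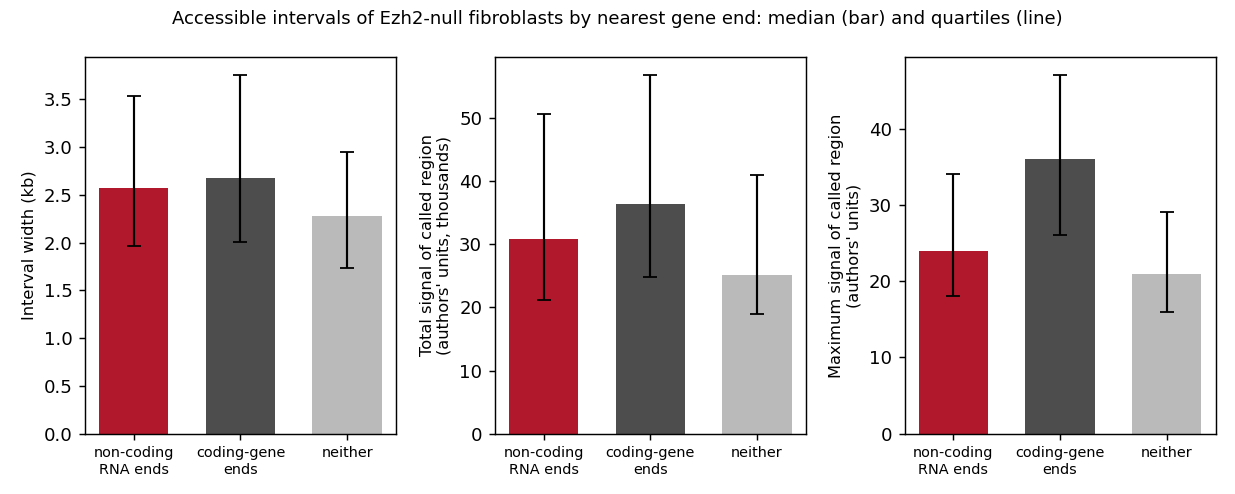
Width of intervals (kb), total signal and maximum signal of their called regions (both in the authors' units) at non-coding RNA ends, at coding-gene ends and at neither; bars are medians and lines span the quartiles. The median maximum was 24 at non-coding RNA ends, between 36 at coding-gene ends and 21 at neither.

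Most members overlapped the peak of their signal. Of the 1416 intervals, 1151 (81.3%) overlapped the region of maximum of their called region, and any such overlap is called holding the maximum. Their median maximum was 25, and 4 of these maxima lay within 1000 bp of a coding end. The other 265 were pieces of regions whose maximum lay elsewhere, within 1000 bp of a coding-gene end for 53 of them (20%). The median total signal of those regions was 50389.5, against 29361 for intervals with their own maximum. A high total at such an interval therefore counts signal outside it. The RNA gene end itself lay inside the interval for 951 members (67.2%), and for the other 465 the median gap was 456 bp.

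Most non-coding RNA genes had no interval at their ends. Of 13544 non-coding RNA genes, 1413 (10.4%, exact 95% binomial interval 9.92 to 11) had a member interval. With intervals near coding ends counted too, 2864 (21.1%) had an interval within 1000 bp of an end, against 10263 of 20665 protein-coding genes (49.7%). The binomial interval covers counting over genes only, and genes are not replicates. For long non-coding RNA genes the share with a member was 10.7% and with any interval 21.2%. For microRNA genes it was 7.22% with a member and 21.0% with any interval. Genes with a curated RefSeq record (NR) had a member in 406 of 3221 cases (12.6%) and any interval in 30.8%. Genes known only from predicted models (XR) had a member in 925 of 9187 (10.1%) and any interval in 17.8%. Of the 1413 RNA genes, 1265 (89.5%) carried only a Gm, LOC or Rik symbol and 148 a given name. Of 2892 RNA genes with an end within 2 kb of a coding end, 6.43% had a member and 52.2% any interval, against 11.5% and 12.7% of 10652 RNA genes farther away. The limit of 1000 bp on coding ends removes members from the nearer genes by construction.

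Small nucleolar RNA host genes were among the named RNAs with the highest maxima. These genes carry snoRNAs in their introns, which guide the chemical modification of ribosomal RNA. This list and those below were chosen with earlier results of these data known, so their shares are descriptions only. Of 21 listed, 9 had a member interval and another 9 an interval shared with a coding-gene end, that is 42.9% with a member and 85.7% with any interval, where 10.7% and 21.2% of all long non-coding RNA genes had them. Snhg16 on chromosome 11 (116671660 to 116675798, mm10) had an interval of 4429 bp over its 5′ end and most of the gene, with a maximum of 77 and a total of 63002. That maximum ranked 4 among the member regions. Dancr, a host gene on chromosome 5 (74093060 to 74094337), had a maximum of 70 in an interval of 2079 bp that covered the whole gene, with a total of 30141. Snhg5 on chromosome 9 (88521052 to 88522897) had a maximum of 56 and a total of 63976, and its interval covered the whole gene.

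The other 6 snoRNA hosts with a member had lower maxima. Snhg15 had a maximum of 54 at its 5′ end and Snhg20 a maximum of 30 over the whole gene. Snhg17 had 2 members, and that of 10227 bp at its 3′ end belonged to a region with a total of 128643. The maximum of that region, 38, lay outside this interval, beside the 5′ end of Snhg17. Snhg1 had a member at its 3′ end, with a maximum of 15, and Snhg11 a short one of 305 bp with a maximum of 14 outside it. Snhg4 had a maximum of 27. Among the 9 shared with coding ends, Snhg8 (94) and Snhg10 (74) had the highest maxima, and Zfas1 and Gas5 had 59 and 54. The regions at Snhg10 and Zfas1 are also those of the members at Gm46375 and Gm39984. Their maxima lay 31 bp from an end of Glrx5 and 133 bp from an end of Znfx1. Snhg14, Snhg18 and Snhg6 had no interval.

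A list named broadly expressed long non-coding RNAs had a member interval at 9 of its 12 genes in the table (75%, where 10.7% of all long non-coding RNA genes had one). Any interval stood at 11 (91.7%, where 21.2% had one). The name is only that of the list, as expression was not measured here. Carmn is also counted among the microRNA hosts below. Malat1, the abundant RNA of nuclear speckles, lies on chromosome 19 (5795690 to 5802672). Its interval of 12483 bp reached from 5792521 to 5805003 and covered the entire gene, with a total of 176421 and a maximum of 60. Neat1, the scaffold of paraspeckles and a neighbour of Malat1, had an interval of 3113 bp at a gap of 742 bp from its lower end. Its region was split into 3 intervals with a total of 148556 and a maximum of 38, which lay outside the member. The region at Malat1 appeared in the list as a single interval. Whether its total also counts signal outside that interval was not tested.

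Other RNAs of this list had smaller regions. Trp53cor1, also called lincRNA-p21 and known as a p53 target, had a maximum of 39 and a total of 31860. Oip5os1, known as Cyrano, had a maximum of 35 at its 5′ end. Pvt1, which lies next to Myc on chromosome 15, had an interval of 1337 bp at its lower end, 47316 bp from the nearest end of Myc, with a maximum of 27 and a total of 19826. Lncpint had a maximum of 22 and Morrbid 23, both at the 5′ end and both under the median of 24. Miat had an interval at its 3′ end whose region, in 3 pieces, had its maximum of 32 outside. Carmn, the host of miR-143 and miR-145, had a maximum of 50 and a total of 83286. Tug1 (33) and Crnde (56) had intervals shared with the ends of Morc2a and Irx5. Norad was the only listed gene in the table with none.

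Host genes of microRNAs had a member at 7 of 16 (43.8%, where 10.7% of all long non-coding RNA genes had one), and 0 had only an interval shared with a coding end. Mir22hg on chromosome 11 (75461539 to 75466690) led with a maximum of 63 and a total of 98062, in an interval of 6078 bp over its 5′ end. That interval ended 23 bp short of the miR-22 hairpin. Dnm3os on chromosome 1, an antisense transcript inside Dnm3 that carries miR-199a-2, had a maximum of 58 in an interval at 162215008 to 162218833 over its 5′ end, and the hairpin lay inside it. Dleu2, the host of miR-15a and miR-16-1, had a maximum of 38 at its 5′ end. Mir17hg, the host of the growth-promoting cluster from miR-17 to miR-92a, had an interval of 2913 bp only beyond its 3′ end, at a gap of 211 bp, with a maximum of 13 and a total of 16127. The 6 listed hairpins of that cluster, from Mir17 to Mir92-1, had none within 1000 bp. Mirg had an interval at its 3′ end (maximum 35). Lncppara, entered in the list by its synonym Mirlet7bhg, had one at its 3′ end with a maximum of 25 outside it. H19, Mir100hg and Mir124-2hg were among the 9 with none.

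**Figure D2:**
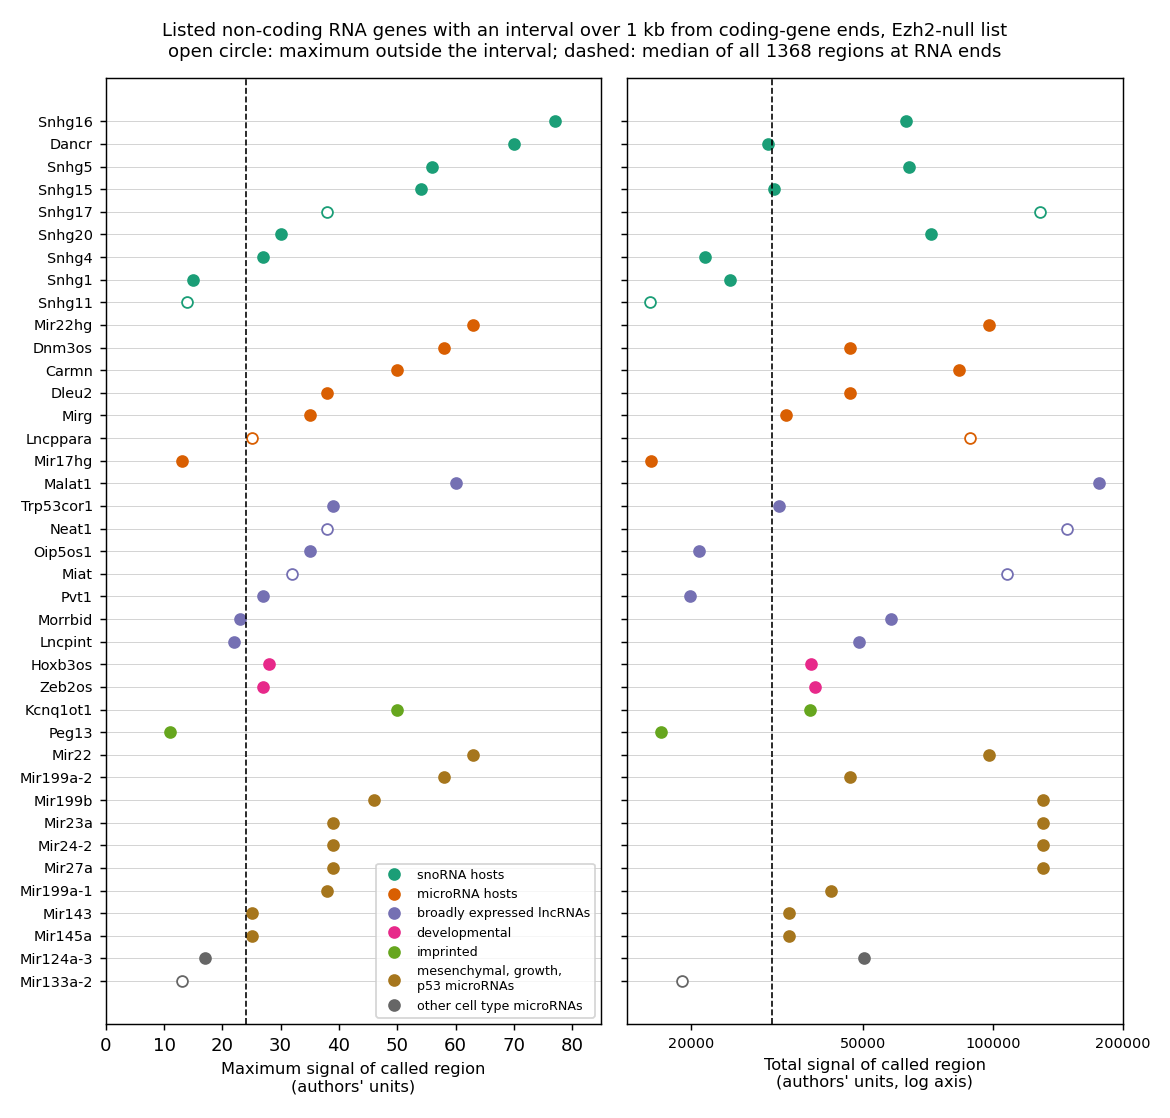
Maximum signal (left) and total signal (right, log axis) of the called region at each listed non-coding RNA gene with an interval over 1000 bp from coding-gene ends, coloured by list. Open circles mark genes whose interval does not overlap the maximum and dashed lines the median over 1368 regions. Snhg16 (77) and Dancr (70) had the highest maxima shown, and Malat1 (176421) the highest total.

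Of 27 listed microRNA genes of mesenchyme, growth and the p53 response, 9 had a member interval (33.3%) and 11 any interval (40.7%), where 7.22% of all microRNA genes had a member and 21.0% any interval. They rest on 6 intervals, since neighbours share one. Mir23a, Mir27a and Mir24-2 lay together under an interval of 12250 bp on chromosome 8 (84197136 to 84209385), with a total of 130834 and a maximum of 39, 1557 bp from the nearest coding end, that of Zswim4. Mir199b lay in an interval of 4529 bp inside Dnm1 with a maximum of 46, in a region of 3 intervals with a total of 130866. Mir199a-1 lay in an interval of 2776 bp inside Dnm2 with a maximum of 38. All 3 member genes with the seed CAGUAGU stood inside a dynamin gene and under an interval that held its own maximum. On chromosome 18 an interval of 1471 bp with a maximum of 25 contained Mir145a and ended 803 bp from Mir143. Mir132 and Mir212 had an interval that also reached the end of Hic1. Mir21a, whose product is abundant in many cultured cells, had none within 1000 bp, nor did Mir29a, Mir31 or the p53-responsive Mir34a.

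MicroRNAs typical of other cell types had a member at 2 of 22 genes (9.09%) and any interval at 4 (18.2%), where 7.22% of all microRNA genes had a member and 21.0% any interval. Mir124a-3, one of 3 genes for a neuronal microRNA, had an interval of 1812 bp, whose region had a maximum of 17 and a total of 50196. If height and area share a scale, that total is too large for this interval alone. Mir133a-2, of striated muscle, had an interval at a gap of under 1000 bp, whose region had a maximum of 13 outside it. The 2 with an interval shared with a coding end had maxima of 57 and 15. The liver gene Mir122 and the other 2 Mir124a genes had none.

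With a single interval taken per gene, the 82 microRNA genes with a member rested on 71 different intervals. The median width was 2692 bp, the median total 46765 and the median maximum 25. Mir3097 and Mir499 each had a further member that is not counted here. The hairpin lay wholly inside the interval for 49 genes, and 64.6% had the interval inside a protein-coding gene. Mirlet7i on chromosome 10, in an interval of 10398 bp, had a maximum of 38 and a total of 101094, and was chosen here after its value was seen. Mirlet7b and Mirlet7c-2 on chromosome 15 shared 5501 bp and a region with a total of 88305, whose maximum of 25 lay outside.

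Non-coding neighbours of Hox genes and other developmental regulators had a member at 2 of 26 (7.69%) and any interval at 8 (30.8%), where 10.7% of all long non-coding RNA genes had a member and 21.2% any interval. Of 28 listed, Dlx1as and Emx2os belong to an antisense RNA class outside the 26, and each had an interval. Many of these regulators are classical Polycomb targets. Hoxb3os, an antisense transcript within Hoxb3 on chromosome 11, had an interval of 1660 bp at its 3′ end with a maximum of 28 and a total of 37973. Zeb2os, within Zeb2, had 2 intervals, of which that of 3965 bp had a maximum of 27 and a total of 38779. Intervals shared with a coding end stood at 6 more, with maxima of 49 at Foxd2os, 31 at Hotairm1 and at Hoxb5os, 26 at Vax2os, 24 at Hoxaas3 and 20 at Fendrr. The other 18 had none. They included Hotair, Hottip and Hoxa11os of the Hox clusters and Sox2ot, Six3os1 and Pax6os1 of neural loci.

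Of 8 listed imprinted RNA genes in the 2 classes, 3 had a member (37.5%) and 0 only an interval near a coding end, where 10.7% of all long non-coding RNA genes had a member and 21.2% any interval. Kcnq1ot1 on chromosome 7 (143213111 to 143296547), the antisense RNA that silences its imprinted domain on the paternal chromosome, had an interval of 3173 bp at its 5′ end inside Kcnq1, with a maximum of 50 and a total of 37730. Mirg had the 3′ interval given above and Peg13 one of 344 bp, at a gap of 792 bp, with a maximum of 11. Airn, H19, Meg3, Rian and Snhg14 had none. Of the structural RNAs, Vaultrc5 was the only listed gene in these 2 classes, with an interval that also lay near a coding end. Opposite-strand RNAs, those with a symbol ending in os or in os and a number, had a member at 21 of 209 (10.0%, against 10.4% of all non-coding RNA genes). With the 52 that had an interval only near a coding end, 34.9% had any interval, against 21.1% of all non-coding RNA genes.

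Of the 10 member regions of highest maximum, 8 were at RNAs with model symbols. The highest, 98, was at 1700028E10Rik on chromosome 5 (151368675 to 151414083). Its interval of 6257 bp lay over the 5′ end, inside Stard13, 55548 bp from the nearest coding end, with a total of 105370. Gm11767 on chromosome 11 followed with 87, at its 5′ end inside Baiap2 and 1779 bp from an end of that gene. C630043F03Rik (81), Mir6911 (74) and Gm46375 (74) belonged to regions whose maximum lay within 500 bp of an end of Tle1, Dazap1 and Glrx5, at distances of 69, 481 and 31 bp. Snhg16, Gm40345 (77), 1700096K18Rik (76), Gm39918 (75) and Gm38737 (74) held their own maximum. Of the 7 regions whose maximum the member held, 4 were on chromosome 5 and 2 on chromosome 11. Of all members, 11.2% lay on chromosome 5 and 10.5% on chromosome 11. These 7 were picked for their high values, so their places are a description only.

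Total signal ranked the members differently. The highest total, 563210, was at Gm11753 on chromosome 11, inside Tbc1d16, in a region split into 12 intervals whose maximum of 47 lay outside. Gm52551 (368538), Mir6911 (364909), 2900052L18Rik (252950), Mir6987 (240022), Gm34844 (228135), Gm51809 (227497) and Gm39984 (226278) were also pieces with the maximum elsewhere. Gm11767 (246779) and Gm39918 (236172) held theirs. With such pieces left aside, a choice made after the values were seen, these 2 were followed by Gm35598 (194674), Gm14321 (187702), Mir339 (183860), Gm42007 (183070) and Malat1. All of these but Malat1 still came from regions split into 2 to 4 intervals. Their totals thus also count signal outside the named interval. The interval at Gm14321 lies 85899 bp from the nearest coding end, that of Cebpb.

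The widest member was the interval of 17458 bp over Mir6911, inside Dazap1. Gm34065 (14172 bp, inside Septin9), Gm16104 (13961 bp, inside Nfic), 2810410L24Rik (13447 bp), Gm35170 (13281 bp) and Gm30746 (12610 bp) followed, then Malat1 and the interval over Mir23a. Gm31078 (11940 bp) and 6330415G19Rik (11910 bp) closed the 10. All of these but that at Mir6911 held their maximum. Of all members, 49 (3.46%) were 7 kb or wider, against 5.67% at coding-gene ends and 1.44% at neither, and 5 were under 200 bp.

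Most RNA genes had a single member. Of the 1413, 1312 had 1 interval, 97 had 2 and 4 had 3, namely Gm13372, Gm19639, Gm39663 and Gm46536. At Gm46536 on chromosome 15 all 3 belonged to 1 called region with a total of 100859 and a maximum of 23. In turn, 1327 intervals served 1 RNA gene, 79 served 2 and 10 served 3 or more.

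Members lay at the 5′ end of most long non-coding RNA genes that had one. Strand was taken from the RefSeq promoter table, which held 1049 of the 1331 genes. Among 676 such genes over 5 kb long, in which the ends are well apart, 412 (60.9%) had a member at the 5′ end only, 213 (31.5%) at the 3′ end only and 51 (7.54%) at both. Protein-coding genes over 5 kb with an interval had it at the 5′ end only in 77.2% of 7157, at the 3′ end only in 6.15% and at both in 16.6%, with no limit on other gene ends. The 5′-only share was 66.7% for 216 long non-coding RNA genes with a curated record and 58.3% for 460 known only from models. The regions at 5′ ends had a median maximum of 26 (quartiles 18 and 36) and a median total of 29912. Those at 3′ ends had a median maximum of 21 (16 and 29) and a median total of 29369. The quartile ranges overlap. Of the intervals, 88.4% at 5′ ends and 79.4% at 3′ ends held their own maximum.

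Around the start of RNA genes the coverage by intervals formed a peak. Of 5052 long non-coding RNA genes over 5 kb with both ends over 2 kb from any coding end, 6.69% had their 5′ end inside an interval, with a highest share of 6.87% at 200 bp downstream. At the 3′ end the share was 2.45%. At 5 kb before the 5′ end it was 3.29%, and at 5 kb before the 3′ end 3.88%; positions over 2 kb away may fall on coding-gene ends, which the choice of genes kept from the centre. Of 12775 protein-coding genes over 5 kb, 49.4% had the 5′ end inside an interval, and 7.69% the 3′ end.

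**Figure D3:**
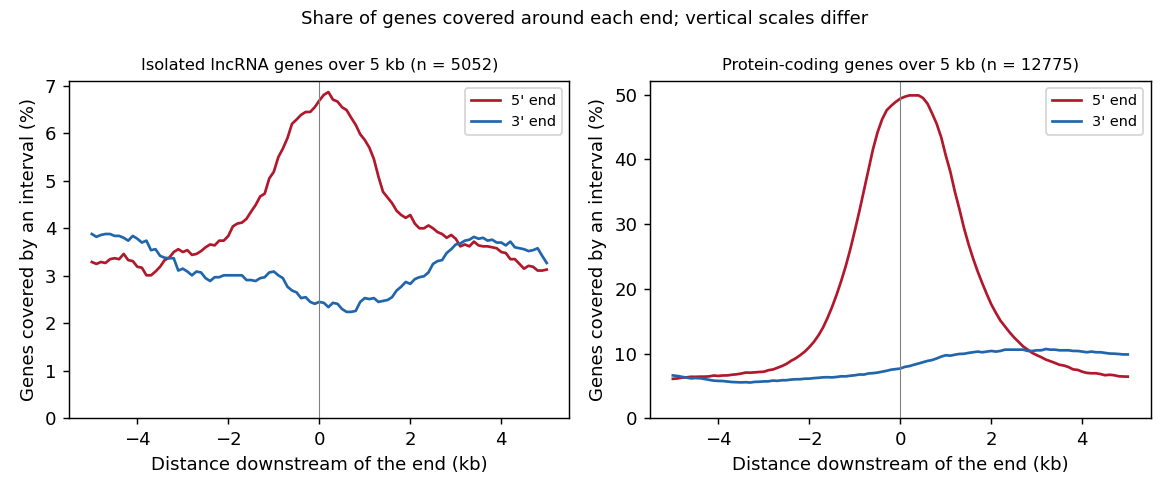
Percentage of genes over 5 kb covered by an interval at each distance (kb) downstream of the 5′ end (red) or 3′ end (blue), for 5052 long non-coding RNA genes whose ends are over 2 kb from coding ends (left) and 12775 protein-coding genes (right), on different vertical scales. The 5′ end peaked at 6.87% for long non-coding RNAs.

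Neighbouring coding genes were near for many members. The nearest coding end was at a median of 16521.5 bp (quartiles 6338.5 and 42014.5 bp), against a median of 15620.5 bp for intervals at neither kind of end. Within 5 kb of a coding end lay 285 members (20.1%), and 296 (20.9%) were over 50 kb away, 4 of them over 500 kb. A protein-coding gene overlapped 505 members (35.7%), against 56.8% of intervals at neither kind of end, and 911 lay between coding genes. For 764 long non-coding RNAs with a member at the 5′ end, the nearest coding start ran head to head in 204 (26.7%), on the same strand in 301 (39.4%) and on the opposite strand downstream in 259 (33.9%). Only coding genes with a known strand were searched, so a nearer start can have been missed. Of the 10263 coding genes with an interval, 8278 had a known strand. Among the 54 of them within 5 kb of that start, 34 (63.0%) began downstream of it on the opposite strand, so that the RNA is annotated as running back towards the coding start. Head-to-head pairs made up 14 (25.9%) and same-strand pairs 6. The same shares were not computed for all long non-coding RNA starts, so whether members differ from these was not tested. Since members lie over 1000 bp from coding ends, close pairs under a shared interval are outside these counts.

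Chromosomes differed in the share of RNA genes with a member. It was highest on chromosomes 5 (18.4%), 19 (18%) and 11 (17.9%) and lowest on chromosomes 13 (4.10%), 14 (4.95%) and 3 (5.09%). On chromosome 11 beyond 90 Mb, 117 of 288 RNA genes (40.6%) had one. Members nevertheless made up a narrower range of each chromosome's intervals, from 4.98% on chromosome 7 to 9.48% on chromosome 12, and 6.74% in distal chromosome 11. Chromosome 2 held the most members, 166. RNA genes of distal chromosome 11 named above include Snhg16, Snhg20, Gm11767, Gm11753 and Hoxb3os.

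**Figure D4:**
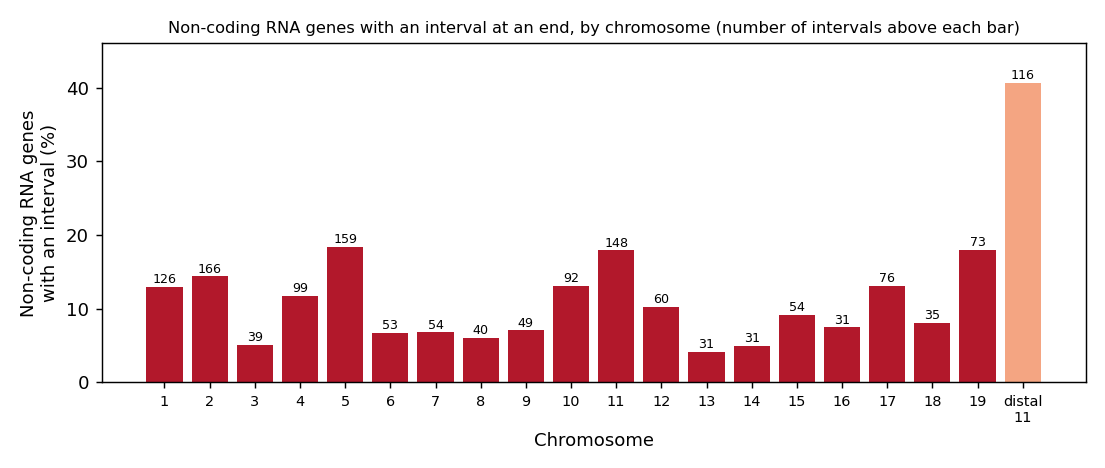
Percentage of non-coding RNA genes with a member interval on each chromosome, with the number of intervals above each bar; the last bar is the part of chromosome 11 beyond 90 Mb, which chromosome 11 also includes. That part stood at 40.6%, against 4.10% to 18.4% for whole chromosomes.

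Promoters of long non-coding RNAs under a member were richer in CpG than those without an interval and poorer than coding promoters under an interval. RefSeq promoters of 300 bp (250 before and 50 after the start) were compared for 25742 genes. The ratio of observed to expected CpG had a median of 0.345 (quartiles 0.198 and 0.636) for 566 long non-coding RNA starts inside a member. It was 0.222 (0.120 and 0.361) for 7851 starts inside no interval and 0.808 (0.654 and 0.939) for 7610 coding starts inside an interval. For 8842 coding starts inside no interval it was 0.274 (0.126 and 0.566), lower than at the starts in members. A ratio of 0.6 or more was found at 27.2% of the starts in members and 7.25% of long non-coding RNA starts in no interval. Among coding starts it was found at 80.9% of those in an interval and 23.0% of those in no interval. Within the members, starts with such a ratio had a median maximum of 37 (quartiles 28 and 50) over 149 regions, against 25 (18 and 34) over 396 regions for the rest.

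Motifs of 7 factors or core promoter elements were searched on both strands. The GC box GGGCGG was in 30.2% of starts in members, 10.7% of long non-coding RNA starts in no interval and 70.4% of coding starts in an interval (36.3% of all promoters). The ETS site CCGGAAG was in 6.71%, 2.93% and 19.9% of the same groups (9.30% of all). The E-box CACGTG, the type of site that Myc and Max bind, was in 9.89%, 5.22% and 10.7% (7.23% of all). The AP-1 site TGANTCA was in 10.8% of starts in members and 9.95% of those in no interval, with 4.11% of coding starts in an interval (7.98% of all). The CCAAT box, with the letters CCAAT, was in 33.6%, 36.4% and 39.9% (37.9% of all), and the TATA box TATAAA in 10.2%, 16.8% and 5.87% (14.2% of all). The cyclic AMP response element TGACGTCA was in 1.94%, 0.751% and 3.6% (1.90% of all). No motif holds the whole of another, and GC boxes can overlap each other. A match is only a description of the letters.

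**Figure D5:**
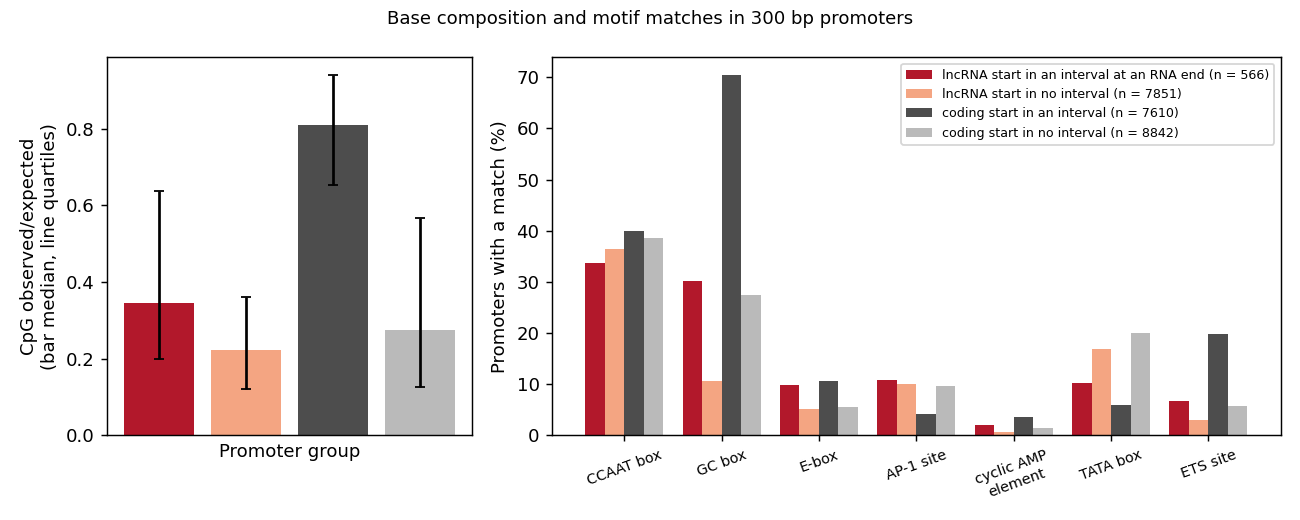
Ratio of observed to expected CpG (left; bars are medians, lines quartiles) and percentage of 300 bp promoters with a motif match (right) for long non-coding RNA and coding starts inside or outside intervals. The GC box was in 30.2% of long non-coding RNA starts in members and 10.7% of those in no interval.

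The promoters of 4 RNA genes with a member over the 5′ end are shown as examples of RNA starts with these motifs, a choice made with their letters and values known. They are given on GRCm38.p6 and read along the RNA's strand, with every match to the 7 motifs in capitals. Dleu2 is at chr14:61682324-61682623 (minus strand), Mir22hg at chr11:75461289-75461588 (plus), Dancr at chr5:74092810-74093109 (plus) and Snhg5 at chr9:88522848-88523147 (minus).
Dleu2: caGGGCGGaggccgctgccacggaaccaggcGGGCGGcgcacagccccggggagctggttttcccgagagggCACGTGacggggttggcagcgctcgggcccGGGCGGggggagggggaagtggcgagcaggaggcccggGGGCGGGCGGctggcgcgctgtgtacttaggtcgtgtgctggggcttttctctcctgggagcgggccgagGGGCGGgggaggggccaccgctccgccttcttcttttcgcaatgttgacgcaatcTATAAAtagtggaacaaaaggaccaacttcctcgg
Mir22hg: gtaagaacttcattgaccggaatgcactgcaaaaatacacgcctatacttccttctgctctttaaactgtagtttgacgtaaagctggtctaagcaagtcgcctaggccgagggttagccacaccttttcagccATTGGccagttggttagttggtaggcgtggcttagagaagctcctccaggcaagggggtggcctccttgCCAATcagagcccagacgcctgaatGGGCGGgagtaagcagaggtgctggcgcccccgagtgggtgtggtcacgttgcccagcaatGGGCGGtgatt
Dancr: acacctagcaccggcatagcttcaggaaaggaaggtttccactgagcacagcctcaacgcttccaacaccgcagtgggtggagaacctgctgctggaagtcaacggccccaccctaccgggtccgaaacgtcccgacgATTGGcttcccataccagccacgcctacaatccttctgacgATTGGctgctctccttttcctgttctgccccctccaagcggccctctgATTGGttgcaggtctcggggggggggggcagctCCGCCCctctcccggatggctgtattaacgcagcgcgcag
Snhg5: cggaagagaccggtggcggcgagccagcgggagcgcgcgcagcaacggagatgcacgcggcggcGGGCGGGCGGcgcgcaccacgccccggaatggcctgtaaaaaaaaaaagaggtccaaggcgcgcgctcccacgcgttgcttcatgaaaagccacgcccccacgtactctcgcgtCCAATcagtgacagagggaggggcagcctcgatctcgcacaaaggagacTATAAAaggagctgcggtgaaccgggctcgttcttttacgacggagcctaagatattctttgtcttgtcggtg
Dleu2 held 6 GC boxes, an E-box and a TATA box that lay after the start. Dancr held 3 CCAAT boxes, all in reverse orientation, and a GC box. Mir22hg held 2 CCAAT boxes and 2 GC boxes. Snhg5 was the only one of the 4 with a TATA box before the start, at position -23 relative to the start, beside 2 GC boxes and a CCAAT box. The promoter of Malat1 had a CpG ratio of 0.604 and 0 of the 7 motifs.

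At the limits of the choice, single values differed widely on both sides. The 3 members farthest from their RNA end, at gaps of 988 to 998 bp, had maxima of 16, 17 and 25. The 3 intervals just outside, at gaps of 1003 to 1008 bp near Gm39707, Mir6924 and 4930579D09Rik, had maxima of 85, 27 and 29. The 3 members nearest to a coding end, at 1007 to 1029 bp, had maxima of 56, 28 and 16. The 3 intervals left out at 990 to 999 bp from a coding end had maxima of 38, 25 and 36.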

How the data were processed

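The list of Ezh2 -/- cells was used as deposited. Per the submitters' processing notes, the tools were Bowtie2 2.2.9, deepTools and the peak caller SEACR, on mm10. The settings, any filters or transposase shift, and how 2 replicates gave 1 list, are not stated there. There are 6 columns, without a header. In SEACR's column order, the total is a score in the authors' unit and the maximum a signal deposited without a stated scaling. Read counts are absent, so depth is unknown.

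Distances ran from the nearest interval edge to a gene's outermost ends, at 0 where the end lay inside. Widths are per interval and signals per called region. Promoters and microRNAs came from RefSeq on GRCm38.p6. Named genes were those of 8 lists with a member, up to 6 a list by total signal, the first 3 without an interval, the 10 highest or widest members, those next to the limits and those with most members; any further gene was named after its values were seen. The members and lists were chosen with earlier results of these data known. As the gene table holds structural RNAs in further classes, they stay out of the members. Lookups were tested on 400 simulated intervals, with 0 distances differing from a plain loop. Calculations used Python 3.11.15, numpy 2.4.6, pandas 2.3.3, scipy 1.17.1 and matplotlib 3.10.9. The 9 alternatives fixed at the start and 2 added after seeing the data are given at the end.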

Additional observations from a re-analysis of the deposited data

How the results depend on the processing

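The list holds no value per replicate, so leaving out a replicate was not possible. No paired analysis was possible because the list gives 1 pooled value per region. Under 11 alternatives, 8 counts of members stayed within 1.5 times of 1416 (1131 to 1945). Counts beyond that were 787 above the list's median total signal, 442 above its upper quartile and 139 without RNA genes with model symbols. Medians are called moved outside the exact 95% interval of the main median, shares outside their binomial interval. The median width moved to 2476 bp with a window of 2500 bp, 3136 bp above the median total, 3713.5 bp above the upper quartile, 2640 bp for intervals holding their maximum and 2857 bp without model symbols. In the same order the median total signal moved to 29506, 47658, 68982.5, 29361 and 42832.5. The median maximum, 24, moved to 29 above the median total, 34 above the upper quartile and 29.5 without model symbols. The share of RNA genes with a member, 10.43%, moved under all 11, to 8.993% and 13.68% with windows of 500 and 2500 bp, 11.43% and 8.314% with coding ends at over 0 and over 5000 bp, 5.936% and 3.382% above the median and upper quartile, 9.849% with at least 200 bp inside the window, 8.786% for intervals holding their maximum and 9.433% without model symbols. For the 2 alternatives added after seeing the data it was 9.405% with further RNA classes and 9.569% without the intervals of chromosome 11 beyond 90 Mb. The RNA genes of that part stayed in the count of genes. The share of members inside a coding gene, 35.66%, moved to 38.24% above the upper quartile and 50.36% without model symbols. By construction, stricter totals, the 500 bp window, the 5000 bp coding limit and the overlap of 200 bp can only remove members. So can keeping intervals that hold their maximum or leaving out distal chromosome 11. The 2500 bp window and the 0 bp coding limit can only add members. Model symbols and further classes change which RNA genes are counted. Stricter totals also raise the median total by construction. For other moves of the medians and of the share inside a coding gene the cause was not tested.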
